A study of Arabidopsis thaliana with 62 samples.

Results

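The comparison of the mutant sig2-2 with the wild type Col0 in part 2 of the series rests on 16 of the 62 samples, chosen by their titles, with 4 membrane and 4 stroma libraries of each genotype. Col0 is the Columbia wild type of Arabidopsis thaliana, and sig2-2 is a line named for a mutation of the nuclear gene for sigma factor 2. In part 2 the genotype label of the mutant libraries also says wild type, against their titles and line names, and groups were taken from the titles. The mutated gene is nuclear and was not analysed here, so the labels could not be checked against it. Both genotypes were whole seedlings of 4 days by the titles, or 4 to 5 days by the protocols, kept on plates in continuous light of 100 umol m-2 s-1, and an extraction pooled about 50 seedlings. Formaldehyde at 4% was applied for 4 h to crosslink them before grinding, and DNA was then sequenced from a membrane fraction and a stroma fraction, an assay that the labels call SOLINA. Nothing in the labels says that replicates came from separate cultures, so p-values measure only the spread between these samples, which may be technical.

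The plastid genome is packed in nucleoids, protein and DNA bodies that can be attached to the thylakoid and envelope membranes, and active transcription is among the processes thought to tether DNA there. Most plastid genes are transcribed by the plastid-encoded polymerase, a bacterial type of enzyme that needs a nuclear-encoded sigma factor to start at a promoter. Sigma factor 2 is known for the promoters of several tRNA genes, among them trnE, whose glutamyl-tRNA is also the precursor of chlorophyll and haem, and for psaJ. A smaller set of genes, such as accD and the polymerase subunit gene rpoB, is read mainly by a nuclear-encoded polymerase of phage type.

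The deposited values are coverage at each base of the plastid genome. Coverage was averaged over 113 gene bodies and over 259 windows of 500 bp and divided by the mean of its library. Such a relative coverage of 1 is the library's average, and it shows where along the genome the DNA of a fraction lies, not how much DNA the fraction holds. The genotypes were compared in the membrane libraries, in the stroma libraries, and as the difference of their log2 membrane to stroma ratios, each ratio formed from the libraries with the same replicate number. The ratio difference is built from the same 16 libraries as the other comparisons and is not independent of them. Mean depth per base was 379 to 924 in Col0 membrane, 1936 to 4528 in Col0 stroma, 425 to 3825 in sig2-2 membrane and 2568 to 4598 in sig2-2 stroma. The sig2-2 membrane library of replicate 4, at 3825, stood apart from the other 3 of its group, which had 425 to 760.

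Libraries of the same group differed mostly along a single direction, which held 87.3% of the spread within groups over windows. In all 4 groups replicate 2 lay at the high end of this direction and replicate 4 at the low end, whatever the genotype or fraction. Genes with a high weight in it, such as rrn16S (weight 1.62) and rrn23S (1.55), were well covered in replicate 2 and poorly in replicate 4, and genes with a negative weight, such as petL (-1.75) and ccsA (-1.20), did the opposite. The direction matters for what follows, because the genotype difference in stroma ran along it. Across 259 windows the sig2-2 minus Col0 difference in stroma had a Pearson correlation of 0.92 with the weights, and the ratio difference one of -0.92, against -0.15 for the membrane difference. These correlations describe windows of the same libraries and carry no p. The part that this shared spread has in the genotype differences was not tested.

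The fractions differed in how far the genotypes were apart. In the membrane fraction the sig2-2 minus Col0 difference over genes had an SD of 0.087 on the log2 scale, and 2 of 113 genes lay more than 0.25 from 0. In the stroma fraction the SD was 0.30 and 52 genes lay beyond 0.25. Thus sig2-2 and Col0 had nearly the same membrane profile, and the wider differences were in stroma. In the limma fit without a block, 0 of 113 genes (0.0%) passed an adjusted p of 0.05 in membrane, where 5 had an unadjusted p under 0.05, and 0 of 113 (0.0%) in stroma, where 31 did. With replicate number as a block, 5 genes (4.42%) passed in membrane, 1 higher (0.885%) and 4 lower (3.54%) in sig2-2, and 29 (25.7%) in stroma, 19 higher (16.8%) and 10 lower (8.85%). The blocked membrane count was 0 without replicate 3, 1 without replicate 4 and 23 without replicate 2. The blocked stroma count was 0 without replicate 1 and 0 without replicate 3, 36 without replicate 2 and 54 without replicate 4, and without a block it was 42 when sig2-2 replicate 4 was left out.

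For the ratio difference, 62 of 113 genes (54.9%) passed in limma, 33 with a higher (29.2%) and 29 with a lower (25.7%) membrane to stroma ratio in sig2-2. With the block on the ratios 47 genes (41.6%) passed, 21 higher (18.6%) and 26 lower (23%), and 46 of them were among the 62. The ratios of the genotypes did not overlap for 47.8% of all genes. The count of 62 fell to 40 without Col0 replicate 3 and to 41 without Col0 replicate 2, and was 44 to 62 without any other single replicate, and in the blocked fit it was 15 without replicate 1 and 3 without replicate 3. Without Col0 replicate 2 there were 14 rises and 27 falls, without Col0 replicate 3 there were 14 and 26, and in the blocked fit without replicate 1 or replicate 3 there were 0 rises and 15 and 3 falls. The split of directions also depends on the scaling. Dividing by the single-copy regions moved the median of all genes by -0.13 on the log2 scale and gave 9 higher and 46 lower, and dividing by the median window gave 14 higher and 35 lower. A rise is therefore a statement relative to the library mean, and the falls below were larger than this shift. With the 16 libraries in a single fit that ignored replicate numbers, 0 genes passed in limma, and 15 had an unadjusted p under 0.05.

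**Figure D1:**
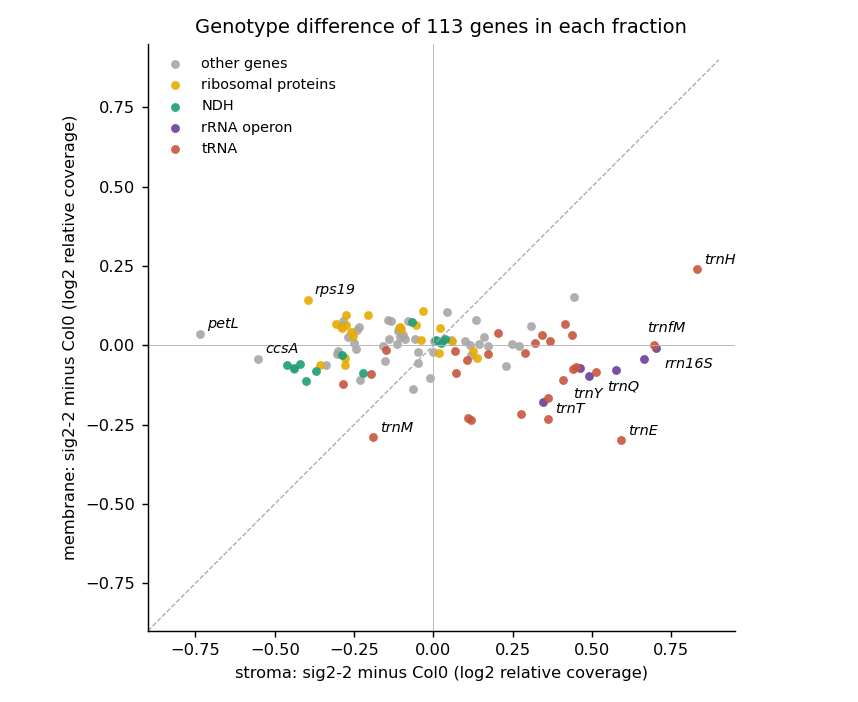
Each point is 1 of 113 genes, placed by the sig2-2 minus Col0 difference of mean log2 relative coverage in stroma (x axis) and in membrane (y axis), coloured by gene group, and on the dashed line both would be equal. The points spread along the x axis, from petL at -0.74 to trnH at 0.83, and lie between -0.30 and 0.24 on the y axis.

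Among the tRNA genes tied to sigma factor 2, trnE, trnY and trnV had lower membrane to stroma ratios in sig2-2, and trnD and trnM did not pass. Of the 6 genes on the list of its targets (these 5 and psaJ), 3 fell and 0 rose, where 25.7% of all genes fell. With the block 4 fell, against 23% of all genes, and without replicate 3 in that fit only trnE did. The median difference was -0.31 against 0.03 over all 113 genes. In membrane, relative coverage of trnE (ArthCt097) was 1.44, 1.73, 1.30 and 1.17 in replicates 1 to 4 of Col0 and 1.14, 1.30, 1.07 and 1.04 in sig2-2. In stroma it was 0.805, 1.14, 0.812 and 0.857 in Col0 and 1.22, 1.97, 1.12 and 1.23 in sig2-2. Every replicate number had less trnE in membrane and more in stroma in sig2-2, while the ranges of the genotypes overlapped in each fraction.

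The membrane to stroma ratio of trnE was 1.79, 1.51, 1.60 and 1.36 in Col0 and 0.936, 0.661, 0.959 and 0.841 in sig2-2, and these ranges did not overlap. The log2 ratio fell by 0.89 (SE 0.13, n = 4 each, limma adjusted p 0.00102), to 0.539 of the Col0 ratio. It was the largest fall of any of the 113 genes, and it passed in 22 of 23 other settings, the exception being the fit without replicate numbers. Within fractions the difference was -0.30 in membrane (limma adjusted p 0.952, and 0.00858 with the block) and 0.59 in stroma (0.116, and 0.0101 with the block). trnE was among the 4 genes that passed as lower in membrane with the block.

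The other tRNA genes of the list had smaller ratio differences than trnE. trnY (ArthCt096), which lies beside trnE and is transcribed with it, had ratios of 1.24, 1.52, 1.30 and 1.24 in Col0 and 0.914, 0.899, 0.919 and 0.953 in sig2-2, without overlap. Its log2 ratio fell by 0.52 (SE 0.07, limma adjusted p 0.00102). The ratio of trnV (ArthCt103), for valine, was 1.24, 1.06, 1.19 and 1.34 in Col0 and 1.00, 0.974, 0.897 and 1.00 in sig2-2, a fall of 0.31 (SE 0.08, limma adjusted p 0.0114). Its membrane values nearly coincided, 1.00 to 1.12 in both genotypes, and the genotypes parted in stroma, at 0.824 to 0.946 in Col0 and 1.02 to 1.21 in sig2-2.

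trnD (ArthCt095), for aspartate, had ratios of 1.14, 0.987, 1.25 and 1.19 in Col0 and 0.954, 0.710, 0.913 and 1.15 in sig2-2, which overlap. Its difference of -0.31 missed the threshold (limma adjusted p 0.0746) and passed with the block (0.0324). trnM (ArthCt104) had ratios of 1.53, 1.40, 1.30 and 1.23 in Col0 and 1.84, 1.44, 1.15 and 0.856 in sig2-2. The mutant values lay on both sides of the wild type (difference -0.10, SE 0.20, limma adjusted p 0.696), and those of replicate 1 and replicate 4 were the farthest apart. In membrane alone trnM was lower in sig2-2 at every replicate number, with overlapping ranges. That difference was -0.29 (limma adjusted p 0.952, and 0.058 with the block), and the stroma difference was -0.19 (0.558, and 0.33 with the block). psaJ (ArthCp042), which encodes a small subunit of photosystem I, had a ratio of 0.636 to 0.940 in Col0 and 0.837 to 1.07 in sig2-2, a difference of 0.29 that did not pass (limma adjusted p 0.0606). With 200 bp added on each side trnM passed at -0.24 and psaJ at 0.35 (limma adjusted p 0.00643 and 0.00332). The widened trnM takes in ends of trnV and atpE, which were at -0.31 and -0.29.

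**Figure D2:**
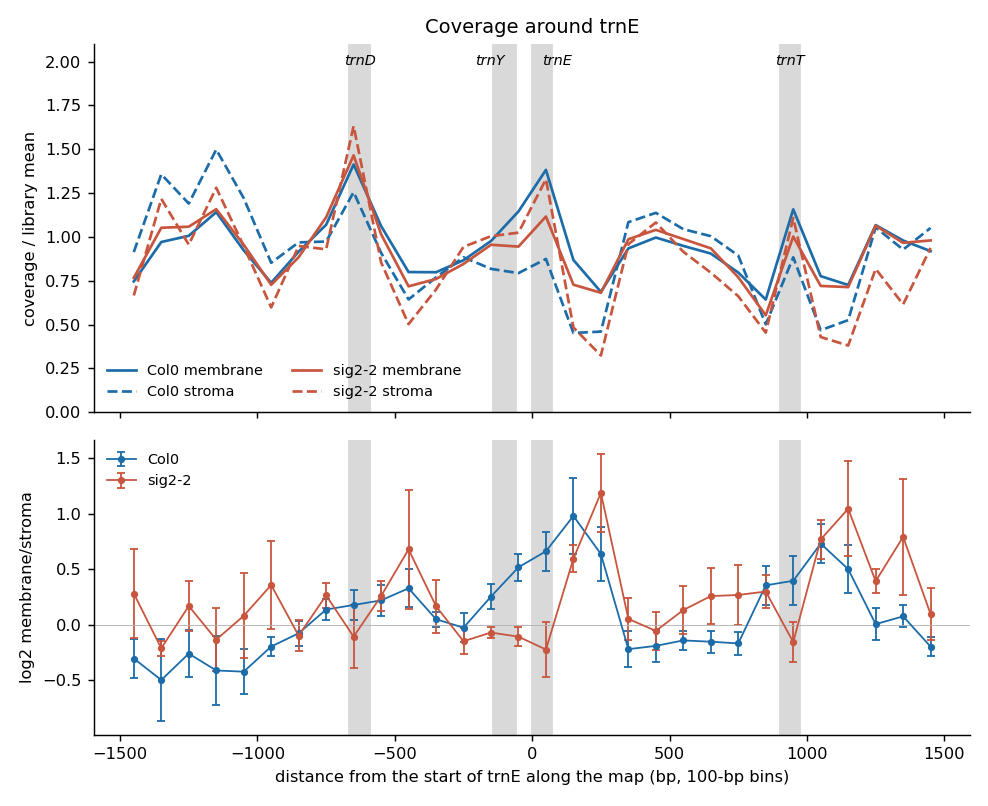
The upper panel plots the mean relative coverage of the 4 libraries of each group in 100-bp bins by distance from the start of trnE, in the direction of the map, and the lower panel the mean log2 membrane to stroma ratio with its SD for each genotype. Grey bands are the tRNA genes trnD, trnY, trnE and trnT, and the Col0 ratio is above the sig2-2 ratio without overlap over trnY and trnE and again over trnT. In the bin that holds most of trnD it is also above, at 0.18 against -0.11, with overlapping ranges.

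The fall was narrow. Of 30 bins of 100 bp within 1500 bp of the start of trnE, 4 had lower ratios in sig2-2 without overlap of the 4 values, and 9 had higher ratios without overlap. The 4 lower bins were those starting at -200, -100, 0 and 900 bp, which cover trnY, trnE and trnT. In the bin starting at 0 the log2 ratio was 0.66 in Col0 and -0.22 in sig2-2. The bin starting at 200 bp, past the end of trnE, went the other way, with 0.64 in Col0 and 1.19 in sig2-2. Coverage there was low, 0.460 of the library mean in Col0 stroma against 0.874 in the trnE bin. These bins were looked at because of the trnE result, so they describe its extent and are no test of it.

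Most tRNA genes outside the list had lower ratios as well. The 29 genes with a tRNA symbol include trnE, trnY, trnD, trnV and trnM of the list, and trnI and trnA of the rRNA operon. Of these 29, 19 fell and 0 rose, with and without the block, where 25.7% of all genes fell without it and 23% with it. In the blocked fit 11 fell without replicate 1 and 3 without replicate 3. A negative difference was seen for 26, with a median of -0.35. Their differences in stroma had a median of 0.34, and 13 passed as higher with the block, where 16.8% of all genes did. The membrane median was -0.07. ArthCt100, an entry of 73 bp without a symbol, was not on this list. Its ratio difference of -0.24 did not pass (limma adjusted p 0.111, and 0.0901 with the block). trnQ (ArthCt090), for glutamine, had ratios of 1.53, 1.38, 1.65 and 1.69 in Col0 and 1.04, 0.974, 0.961 and 1.16 in sig2-2, without overlap (fall of 0.60, SE 0.08, limma adjusted p 0.00102). In stroma its coverage was 0.762 to 1.06 in Col0 and 1.09 to 1.48 in sig2-2, and in membrane 1.29 to 1.47 and 1.20 to 1.44.

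trnT (ArthCt098), for threonine, had ratios of 1.35, 1.09, 1.29 and 1.58 in Col0 and 0.908, 0.723, 0.888 and 0.992 in sig2-2, a fall of 0.59 (SE 0.12, limma adjusted p 0.00568). For trnfM (ArthCt099), the tRNA that starts translation, the ratios were 1.54, 1.31, 1.51 and 1.24 against 0.933, 0.675, 0.804 and 1.08, a fall of 0.70 (SE 0.14, limma adjusted p 0.00532). Neither set of ratios overlapped. The falls of trnQ and trnT belong to the gene bodies alone. With 200 bp added on each side, their differences were -0.14 and -0.04 and did not pass (limma adjusted p 0.102 and 0.5999). trnE was at -0.53 with its sides (limma adjusted p 0.000152). That stretch takes in all of trnY, itself at -0.52, so it is not a measure of trnE and its flanks alone.

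**Figure D3:**
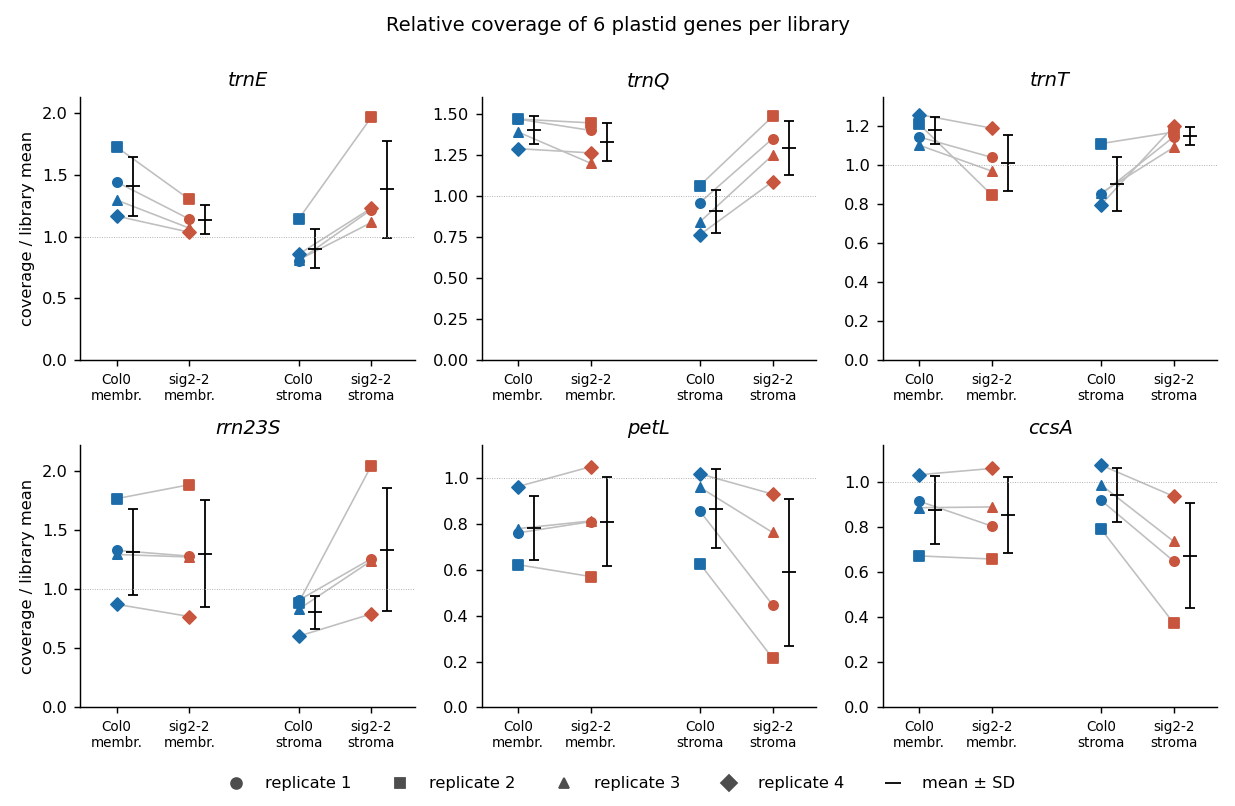
Relative coverage of 6 genes in each of the 16 libraries, with replicates 1 to 4 as symbols, a grey line between the genotypes at the same replicate number, and the mean with its SD beside the points. In stroma all 4 lines rise from Col0 to sig2-2 for trnE, trnQ, trnT and rrn23S and fall for petL and ccsA, and in membrane the lines of rrn23S, petL and ccsA are nearly level.

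The rRNA operon, which encodes the RNAs of the plastid ribosome and is among the most transcribed parts of the plastid genome, was enriched in the membrane fraction in Col0 and not in sig2-2. Operon coverage divided by that of the single-copy regions was 1.35, 1.91, 1.33 and 0.871 in Col0 membrane and 1.30, 2.04, 1.28 and 0.759 in sig2-2 membrane. The genotypes could not be told apart in this fraction (log2 difference -0.05, exact permutation p 0.83, two-sided). In stroma it was 0.915, 0.933, 0.834 and 0.622 in Col0 and 1.33, 2.43, 1.27 and 0.816 in sig2-2. Each number was higher in sig2-2 while the ranges met (log2 difference 0.73, exact permutation p 0.114). Without sig2-2 replicate 4 the difference was 0.97, with the smallest p that 4 against 3 libraries allow (exact permutation p 0.0286).

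The resulting membrane to stroma ratios of the operon were 1.47, 2.05, 1.60 and 1.40 in Col0 and 0.982, 0.839, 1.00 and 0.930 in sig2-2, with no overlap. The log2 difference was -0.78, (exact two-sided permutation p 0.0286), the smallest that 4 against 4 ratios allow. In a limma fit that ignored replicate numbers its unadjusted p was 0.120. All 6 genes of the operon list fell, and all 6 did with the block, between -0.52 and -0.71. Over all genes 25.7% fell, and 23% with the block. rrn23S (ArthCr087) had ratios of 1.47, 1.99, 1.56 and 1.45 against 1.02, 0.921, 1.03 and 0.972 (fall of 0.71, SE 0.10, limma adjusted p 0.00102). For rrn16S (ArthCr086) the fall was 0.71 (SE 0.11, limma adjusted p 0.0015), for rrn4.5S (ArthCt109) 0.65 (0.00103) and for trnA (ArthCt108), in the spacer of the operon, 0.59 (0.00173). rrn16S and rrn23S carried the highest weights of any gene in the direction of spread between replicates, and the other 4 operon genes had 1.03 to 1.23. In the blocked fit without replicate 3, 0 of the 6 passed, while 6 of 6 did without Col0 replicate 2 or 3 in the fit without the block.

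**Figure D4:**
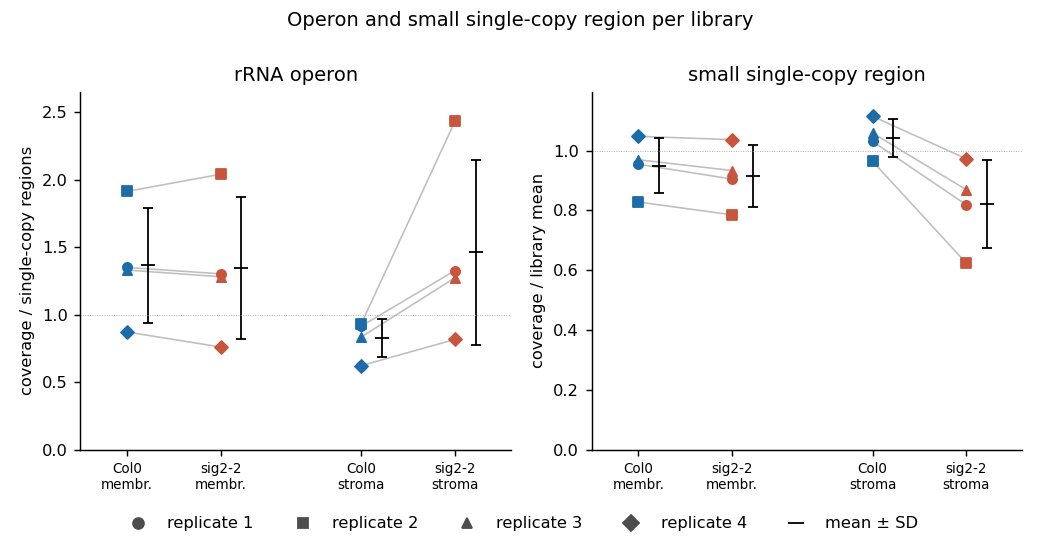
The left panel plots operon coverage relative to the single-copy regions, and the right panel the relative coverage of the small single-copy region, in each of the 16 libraries, with symbols for the replicate number, grey lines between genotypes at the same number, and the mean with its SD. In stroma the operon is higher and the small single-copy region lower in sig2-2 at every replicate number, and replicate 2 of sig2-2 lies at 2.43 and 0.624.

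Among the genes of photosynthesis, psbA and rbcL fell. psbA (ArthCp002), for the D1 protein of photosystem II, had ratios of 1.11, 1.15, 1.18 and 1.18 in Col0 and 0.928, 0.930, 0.978 and 0.931 in sig2-2, a fall of 0.30 (SE 0.05, limma adjusted p 0.00189). rbcL (ArthCp030), for the large subunit of Rubisco, had ratios of 1.08, 1.21, 1.08 and 1.12 against 0.944, 0.882, 0.948 and 0.954, a fall of 0.27 (SE 0.06, limma adjusted p 0.00568). Neither pair of ranges overlapped. Both genes are strongly transcribed in light.

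Of 15 photosystem II genes, 4 rose and 1, psbA, fell, and of 7 photosystem I genes 1 rose and 0 fell. Over all genes 29.2% rose and 25.7% fell. The rises in photosystem II were thus near the background, and the falls in both lists and the rises in photosystem I were below it. The lists are short, and these shares were not tested. Under single-copy scaling 0 rose and 6 fell in photosystem II, and 0 rose and 2 fell in photosystem I. Over all 113 genes 9 rose and 46 fell under that scaling. The core genes were close to 0, with psaA (ArthCp022) at -0.08, psbB (ArthCp049) at -0.11 and psbD (ArthCp017) at -0.14, and none of the 3 passed (limma adjusted p 0.225, 0.135 and 0.0807). Under single-copy scaling all 3 passed as lower, at -0.21, -0.24 and -0.26 (limma adjusted p 0.0216, 0.0269 and 0.0141). psbI (ArthCp006) and psbL (ArthCp037), for small subunits of photosystem II, rose by 0.36 each (limma adjusted p 0.0369 and 0.0389). Their ratios were 0.774 to 0.968 in Col0 and 0.972 to 1.47 in sig2-2 for psbI, and 0.913 to 0.997 and 1.01 to 1.62 for psbL. Both calls were fragile, with 15 and 16 of 23 other settings ending them, median and single-copy scaling included.

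Of 6 cytochrome b6f genes, 3 rose and 0 fell (29.2% of all genes rose), 2 rose with the block (18.6% of all genes), and all 6 differences were positive. Without any single Col0 replicate, under single-copy scaling, and in the blocked fit without replicate 1 or replicate 3, 0 of the 6 passed. petL (ArthCp040), for a small subunit of that complex, had the largest rise of any gene. Its stroma coverage was 0.858, 0.628, 0.961 and 1.02 in Col0 and 0.448, 0.215, 0.764 and 0.931 in sig2-2, and its membrane coverage 0.762, 0.623, 0.781 and 0.964 against 0.811, 0.572, 0.814 and 1.05. The ratio went from 0.889, 0.992, 0.812 and 0.946 to 1.81, 2.65, 1.07 and 1.13, a rise of 0.77 (SE 0.25, limma adjusted p 0.0315). Replicates 1 and 2 made most of it. The call ended in 11 of 23 other settings, single-copy scaling (limma adjusted p 0.0557) and the removal of any Col0 replicate among them. Of 6 ATP synthase genes 1 rose and 3 fell, where 29.2% of all genes rose and 25.7% fell. With the block 1 rose and 1 fell, where 18.6% of all genes rose and 23% fell.

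The small single-copy region, which holds most genes of the NDH complex, a ferredoxin-dependent relative of respiratory complex I, was less covered in sig2-2 stroma. Its relative coverage there was 1.03, 0.964, 1.06 and 1.12 in Col0 and 0.819, 0.624, 0.869 and 0.973 in sig2-2, against 0.828 to 1.05 and 0.785 to 1.04 in membrane. The stroma ranges of the genotypes overlap. Of its 40 windows, 25 had higher ratios in sig2-2 and 0 lower, where 33.2% of all windows were higher. In stroma 0 of them passed without the block and 22 were lower with it, where 10% of all windows were. The region was picked out after its values were seen.

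Of 11 NDH genes, 6 rose and 0 fell, with a median of 0.26, and 5 rose with the block, where 29.2% and 18.6% of all genes rose. Under single-copy scaling 3 rose and 1 fell, where 9 of all 113 genes rose and 46 fell. In the blocked fit without replicate 1 or replicate 3, 0 of the NDH genes passed. ndhG (ArthCp077) had ratios of 0.875, 0.736, 0.884 and 0.919 in Col0 and 1.11, 1.35, 1.06 and 1.00 in sig2-2, a rise of 0.40 (SE 0.10, limma adjusted p 0.0127), and ndhF (ArthCp071) rose by 0.37 (SE 0.08, 0.00568). ccsA (ArthCp073), for a protein of cytochrome c maturation in the same region, rose by 0.51 (SE 0.13, limma adjusted p 0.0114). Its stroma coverage was 0.919, 0.791, 0.987 and 1.08 in Col0 and 0.648, 0.373, 0.736 and 0.936 in sig2-2, lower at every replicate number, with overlapping ranges. The ratios of these 3 genes did not overlap between genotypes. ndhB (ArthCp068), the NDH gene in the repeat, was at -0.02. Also outside the small single-copy region, ndhJ, ndhK and ndhC were at -0.02, 0.01 and 0.14 and did not pass (limma adjusted p 0.804, 0.917 and 0.156).

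Among 21 ribosomal protein genes 12 rose and 1 fell, with a median of 0.22, where 29.2% of all genes rose, and with the block 7 rose and 0 fell, where 18.6% did. The rises were 5 without Col0 replicate 2, 6 without Col0 replicate 3, and 0 in the blocked fit without replicate 1 or replicate 3. Under single-copy scaling 3 rose and 3 fell, where 9 of all 113 genes rose and 46 fell. Under median scaling 5 rose and 1 fell, where 14 of all genes rose and 35 fell. rps19 (ArthCp063) rose by 0.54 (SE 0.19, limma adjusted p 0.0374). Its ratios were 0.811, 0.813, 0.758 and 0.765 in Col0 and 0.954, 1.82, 1.07 and 0.921 in sig2-2, where replicate 2 was far above the other 3, and median and single-copy scaling ended the call. rpl33 (ArthCp043) rose by 0.37 (SE 0.09, limma adjusted p 0.01). The weights of rps19 and rpl33 in the spread between replicates were -1.24 and -0.76.

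Of 8 entries for genes known for transcription by the phage-type polymerase, with a longer and a shorter one for ycf1, 3 rose and 0 fell. The rises were near the 29.2% of all genes that rose, and the median was 0.12 against 0.03 over all genes. clpP (ArthCp048), for a subunit of the Clp protease, had ratios of 0.908, 0.798, 0.916 and 0.956 in Col0 and 1.00, 1.07, 1.05 and 1.05 in sig2-2, a rise of 0.23 (SE 0.07, limma adjusted p 0.02). accD (ArthCp031), for a subunit of acetyl-CoA carboxylase, rose by 0.16 (SE 0.06, limma adjusted p 0.0442, and 0.0845 with the block). The ratios of rpoB (ArthCp014) were 0.876 to 0.957 in Col0 and 0.890 to 0.941 in sig2-2 (difference 0.01, limma adjusted p 0.845). The longer ycf1 entry (Arthcp087) rose by 0.28 (SE 0.06, limma adjusted p 0.00742), with ratios of 0.821 to 0.913 in Col0 and 1.01 to 1.16 in sig2-2, and the shorter one (ArthCp070) was at 0.12 (0.0716). Of the 4 genes for subunits of the plastid-encoded polymerase, 0 passed, where 54.9% of all genes did. Under single-copy scaling clpP and accD were at 0.10 and 0.03 and did not pass, and the longer ycf1 entry was at 0.15 (limma adjusted p 0.0269).

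**Figure D5:**
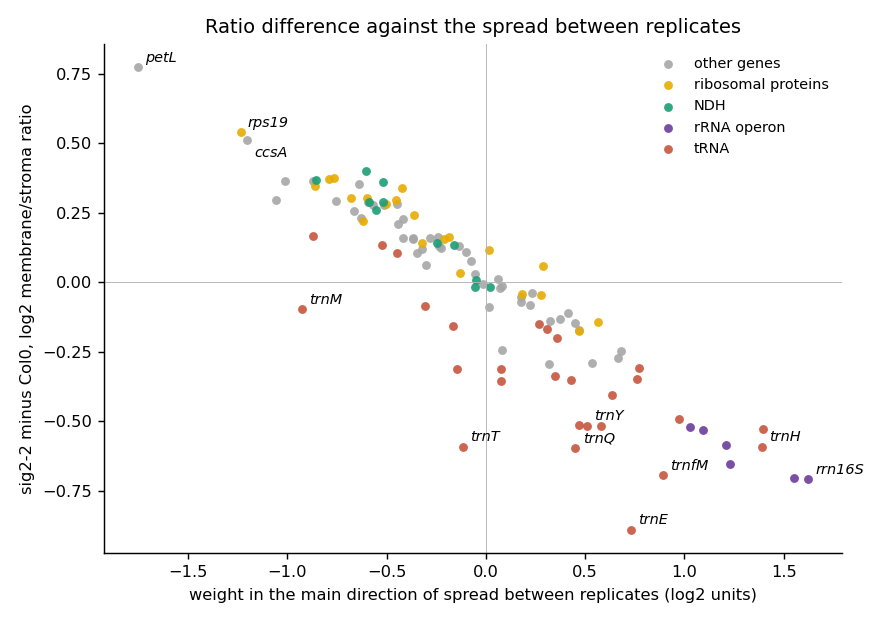
For each of 113 genes, the sig2-2 minus Col0 difference of the log2 membrane to stroma ratio (y axis) is plotted against the gene's weight in the main direction of spread between replicates (x axis). Most genes lie along a falling line from petL (-1.75, 0.77) to rrn16S (1.62, -0.71), while trnE (0.73, -0.89), trnT (-0.12, -0.59) and trnQ (0.45, -0.60) lie under it.

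Over 113 genes the ratio difference and the weight had a Pearson correlation of -0.90. Some tRNA genes had lower ratio differences than others of like weight. trnT had a weight of -0.12 and a difference of -0.59, and trnE a weight of 0.73, less than the 1.62 of rrn16S, with a larger fall. Other tRNA genes lay near the line, such as trnD (0.77, -0.31) and trnA (1.21, -0.59), and the rRNA genes, petL, rps19 and ccsA lay at its ends. This is a description of genes that share 16 libraries.

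Over windows the pattern was coarser. In the ratio difference 121 of 259 windows passed (46.7%), 86 higher (33.2%) and 35 lower (13.5%) in sig2-2, and 87 (33.6%) did with the block, 60 higher (23.2%) and 27 lower (10.4%). Median scaling gave 55 higher and 50 lower, and single-copy scaling 43 higher and 61 lower. Neighbouring windows share fragments and are not independent. The 35 lower windows formed 11 runs, of which the longest, 17 windows from position 100501 to 109000, spanned the rRNA operon. The other 86 formed 39 runs of at most 8 windows. All 11 windows with an rRNA gene fell. Among 39 windows with a tRNA gene 12 fell and 4 rose, among 187 with protein-coding genes only 71 rose and 10 fell, and among 22 without an annotated gene 11 rose and 2 fell.

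The 5 lowest windows all lay in rRNA genes, from 102001 to 102500 in rrn16S (-0.73, SE 0.10, limma adjusted p 0.000205) to 105001 to 105500 in rrn23S (-0.71, SE 0.09, 0.000205), with 106001 to 106500, 106501 to 107000 and 107001 to 107500, all in rrn23S, between them. The highest was 123501 to 124000 at rps15 and ycf1 (0.69, SE 0.12, limma adjusted p 0.000732). Its stroma coverage was 0.752, 0.568, 0.873 and 1.03 in Col0 and 0.397, 0.244, 0.591 and 0.8287 in sig2-2. Among windows without overlap of the genotypes it was followed by 125001 to 125500 in ycf1 (0.62), 26501 to 27000 without an annotated gene (0.60), 125501 to 126000 in ycf1 (0.59) and 113001 to 113500 at rpl32 (0.57). Of these 5, 4 lie in the small single-copy region, and positions are row numbers of the deposited table, in TAIR10.

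Within fractions, 0 of 259 windows (0.0%) passed the limma test without the block in membrane, where 6 had an unadjusted p under 0.05, and 0 (0.0%) in stroma, where 52 did. With the block, 24 (9.27%) passed in membrane, 9 higher (3.47%) and 15 lower (5.79%), and 49 (18.9%) in stroma, 23 higher (8.88%) and 26 lower (10%). The membrane window 30001 to 30500, which holds trnY and trnE, was among the 15. In stroma a run of 14 windows from 101001 to 108000 was higher, and 22 of the 26 lower windows lay in the small single-copy region. Both blocked counts were 0 without replicate 3, and the stroma count was also 0 without replicate 1 and 91 and 87 without replicates 2 and 4. The membrane count was 3, 40 and 12 without replicates 1, 2 and 4. Without the block, 81 stroma windows passed when sig2-2 replicate 4 was left out.

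Within each genotype, more genes differed between membrane and stroma past the threshold in Col0. In limma fits of each genotype's own paired libraries, 27 genes were higher and 39 lower in membrane in Col0 (58.4% of 113), against 0 higher and 1 lower in sig2-2 (0.885%), where 34 had an unadjusted p under 0.05. Over windows the counts were 42 higher and 112 lower in Col0 (59.5% of 259) and 39 higher and 11 lower in sig2-2 (19.3%). The size of the log2 ratios was less unlike than these counts. Their SD over genes was 0.25, 0.335, 0.269 and 0.243 in replicates 1 to 4 of Col0 and 0.192, 0.333, 0.158 and 0.142 in sig2-2, and over windows it was 0.19 to 0.323 and 0.159 to 0.309. The test of the difference between genotypes is the ratio difference above.

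The same part of the series holds seedlings of chl27 and chlm, mutants named for enzymes of chlorophyll synthesis, with 15 usable libraries. The direct test compared sig2-2 with the mean of these mutants, and Col0 was not one of the groups compared. Its libraries were in the fit, where they helped set the spread and, with the block, the replicate terms. The blocked differences are therefore not free of Col0. A gene can thus pass because sig2-2 departs from Col0, or because chl27 or chlm does. With the block, 5 of 113 genes (4.42%) passed for the ratio, all lower in sig2-2, and without the block 0 did in limma, and 13 had an unadjusted p under 0.05. They were trnE (-0.48, limma adjusted p 0.0285), trnQ (-0.39, 0.00859), trnT (-0.49, 0.00263), trnL (Arthct122, -0.41, 0.00317) and trnS (ArthCt117, -0.27, 0.03). All 5 are tRNA genes, and trnL and trnS were named after their values were seen. Of the windows 0 passed in limma, and 22 had an unadjusted p under 0.05.

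The rRNA genes did not pass this test. rrn16S differed from the mean of chl27 and chlm by -0.14 (limma adjusted p 0.67) and rrn23S by -0.15 (0.659), while both mutants' own differences from Col0, which share the Col0 libraries, were -0.63 and -0.55 for rrn16S. trnY (-0.20, limma adjusted p 0.432) and petL (0.39, 0.451) did not pass either. In stroma, 12 genes were higher and 4 lower in sig2-2 with the block (14.2% of 113), trnE (0.43, limma adjusted p 0.00539), trnQ (0.44, 0.000132) and trnT (0.40, 0.00275) among them. In membrane, where 9 were higher and 12 lower (18.6%), trnE was at -0.06 (limma adjusted p 0.304). The chlm ratios rest on 3 replicates, because its stroma column for replicate 1 holds running positions in place of coverage.

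Part 1 of the series compared the same genotypes with 3 replicates, after a protocol that describes isolated chloroplasts. Its values are given beside those of part 2, and the parts were not tested against each other. Its ratio difference was -0.66 for trnE (limma adjusted p 0.288), -0.59 for trnY (0.0594), -0.77 for trnV (0.0122) and -1.16 for trnM (0.00131), against -0.89, -0.52, -0.31 and -0.10 in part 2. For rrn23S it was -0.11 (limma adjusted p 0.83) against -0.71, and for petL -1.17 (0.0313) against 0.77. In part 1, 4 of 113 genes (3.54%) passed for the ratio, all lower. trnE was lower in membrane in both parts, and in fits without a block only part 1 passed. The difference was -0.48 in part 1 (limma adjusted p 0.0244) and -0.30 in part 2 (0.952, and 0.00858 with the block).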

How the data were processed

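DNA of the membrane and the stroma fraction was sequenced, and the authors deposited coverage as whole numbers, a column for each library and a row for each plastid position in TAIR10, per the file headers and labels. Bowtie2 2.2.8.9, Trim Galore 0.4.1 and bedtools 2.25.0 are named in the submitters' processing notes. How duplicates and reads of the repeat were treated is not given in the sources used here. Coverage counts bases, not fragments, so no counting interval was computed and precision is read from the spread of replicates. The lowest mean of a tested window was 113. In all, 19 columns of the tables were not used.

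Coverage was averaged in 309 windows of 500 bp, 259 of which were tested (the 50 in the second copy of the repeat were not), and in 113 of 129 plastid entries of a TAIR10.1 gene table, divided by the mean of the library's windows and put on the log2 scale with no pseudocount. The 15 genes mirrored in the second copy were left out, and so was 1 rps12 entry. The mirror axis of the repeat was 238649 in the gene table and in the coverage. The gene table gives no anticodons, and genes of that table are named without its coordinates.

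Tests were two-sided limma 3.58.1 fits in R 4.3.3 with Benjamini-Hochberg adjustment over all genes or all windows at 0.05, without a block in each fraction and on ratios of same-numbered libraries for the ratio difference. The operon was compared by exact permutation. Deviations of same-numbered libraries had correlations over windows of 0.134 to 0.971 between genotypes in membrane and 0.242 to 0.885 in stroma. Between fractions they were 0.148 to 0.899 in Col0 and 0.284 to 0.929 in sig2-2. The high values were those of replicate 2 (0.783 to 0.939) and replicate 4 (0.885 to 0.971), the ends of the shared direction. Values were lower in replicate 1 (0.284 to 0.458) and replicate 3 (0.134 to 0.610). Replicate numbers were taken to pair samples on this ground, from the data and not from the labels. In simulated sets (10 runs, log2 changes of 0.5 in 50 of the 259 windows), 80.6% to 100% were recovered and 3.29% to 7.19% of calls were false. The simulated noise was independent between windows. Its size was the spread left after replicate terms, also in the sets fitted without a block, which held no differences between replicate numbers. These rates therefore do not cover the shared spread of the real libraries. Python 3.11.15 with numpy 2.4.6, pandas 2.3.3 and matplotlib 3.10.9 made the tables and figures.

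Genes named are those past the threshold without overlap of the 4 against 4 values, up to 8 largest rises and 8 largest falls, and 17 fixed genes, and for windows 5 rises and 5 falls. Genes, lists and comparisons were chosen with earlier results of these data known. Alternatives were other scalings, leaving out replicates, all libraries of part 2 in the fit, array weights, blocks, windows of 200 bp, the second repeat copy and genes with 200 bp on each side. The block on the ratios, the block with another scaling or without a replicate number, and the fits without replicate 2 in both genotypes were added after the data were seen.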

Additional observations from a re-analysis of the deposited data

Results flagged for a closer look

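Samples far from the others of their group were looked for in 130 groups of 4 values, and 5 were found, where chance gives about 1 in 20 groups. Mean depth of the sig2-2 membrane library of replicate 4 was 3825 against 425 to 760 in the other 3. Relative coverage of trnE in stroma was 1.14 in replicate 2 of Col0, against 0.805 to 0.857 in the others, and 1.97 in replicate 2 of sig2-2, against 1.12 to 1.23. psaA and psbD in Col0 stroma were lowest in replicate 4, at 0.975 against 1.06 to 1.07 and at 1.03 against 1.12 in the others. Without replicate 2 of sig2-2 the trnE ratio difference still passed, as it did without any other single replicate (limma adjusted p 0.00125 to 0.00461).

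The ratio differences of petL and psbI pointed in opposite directions in the parts of the series, with no overlap between genotypes in either part, and this contrast was not tested. petL was at 0.77 in part 2 and -1.17 in part 1, and psbI at 0.36 and -0.59.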

How the results depend on the processing

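Replicate numbers decided most counts. In membrane, 0 genes and 0 windows passed without the replicate block and 5 and 24 with it, 10 and 22 with block and median scaling, and 9 and 24 with block and single-copy scaling. The blocked membrane counts ran from 0 to 23 genes and 0 to 40 windows (12 without replicate 4) over single replicate numbers left out, and array weights gave 1 window. In stroma, 0 and 0 passed without the block and 29 and 49 with it, 29 and 50 with median scaling added, 33 and 60 with single-copy scaling added, and 0 to 54 genes (36 without replicate 2) and 0 to 91 windows with a number left out. Without the block the stroma counts were 59 and 121 with array weights, 2 and 4 with all libraries of part 2 in the fit, 2 and 2 with median scaling, 2 windows with single-copy scaling, 0 to 42 genes and 0 to 81 windows with 1 replicate left out, and 3 genes without replicate 2 in both genotypes. For the ratio, 62 genes and 121 windows passed, 47 and 87 with the replicate block on the ratios, 50 and 102 with a shared block, 0 and 2 with no replicate block, 32 and 38 genes with block and median or single-copy scaling, and 227 of the smaller windows, of which more were tested. With a replicate left out the ratio counts were 40 to 62 genes and 97 to 133 windows, and with the block 3 to 48 (15 without replicate 1) and 57 to 107 (61 and 64 without replicates 1 and 4). The operon ratio difference of -0.78 had p 0.120 in limma with no replicate block, and the operon difference in stroma was 0.45 to 0.97 with a replicate left out. The causes were not tested. For the named genes no called value reversed its sign in any setting, and of 690 ratio values under other settings 128 lost the threshold and 19 gained it. Coverage without counts leaves sampling error unknown.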
